A study of Homo sapiens with 15 samples.

Results

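PIWI proteins, tudor domain proteins (TDRD), PRAME and BRDT are known from the germline, and 8 of their genes are described here in 5 human neuroblastoma lines. The genes are PIWIL1, PIWIL2, PIWIL4, TDRD1, TDRD7, TDRD9, PRAME and BRDT. They were chosen by name after their measured levels in these lines were known, so their own levels are given as a description, without a test. Of the 8 genes, 7 had at least 1 probe set that names that gene alone, with 11 probe sets in all, among 18244 genes measured. TDRD7 was not analysed here.

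The study profiled gene expression in lines with and without amplification of MYCN, the transcription factor gene that is amplified in a subset of neuroblastomas, a childhood tumour of the sympathetic nervous system. Lines KELLY, NGP, BE(2)-C, SH-SY5Y and SK-N-AS were measured on 3 arrays each, 15 in all. NGP, BE(2)-C and KELLY carry the amplification and SK-N-AS and SH-SY5Y do not, from general knowledge of these lines. The labels name no treatment, and all lines were kept in DMEM with serum. BE(2)-C is a clone of SK-N-BE(2) and SH-SY5Y is a subclone of SK-N-SH, so that each line stands for 1 tumour and, in these cases, for the descendants of 1 selected cell population. Whether the 3 numbered replicates of a line were grown as separate cultures is not stated in the labels. The p-values therefore measure the spread among these samples alone, and that spread may be technical.

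PIWI proteins bind piRNAs, small RNAs that guide the silencing of transposons in germ cells. Tudor domain proteins recognise methylated arginines on PIWI proteins and gather the piRNA machinery in granules beside mitochondria. PRAME is a cancer-testis antigen, a protein of the testis that many tumours also make, and acts as a substrate receptor of a cullin ubiquitin ligase. BRDT is the testis member of the BET family, whose bromodomains read acetylated histones. In most somatic cells such genes are kept silent by DNA methylation and by repressors that bind E2F-type and E-box sequences at their promoters.

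The promoter sequences below, of the genes that were bright in at least 1 line and of BRDT, show which members hold the letters that MYC family proteins and E2F factors are known to bind. Each is the 250 bases before an annotated transcription start, on the strand of the gene, from RefSeq (GRCh38.p14), and windows of 6 of the 8 genes were taken. Capitals mark the palindromic E-box CACGTG or the E2F-type letters TCCCGC, both searched on either strand, and no match overlaps another. PIWIL1 is shown at chr12:130337637-130337886 (plus strand), TDRD1 at chr10:114179037-114179286 (plus), PRAME at chr22:22559266-22559515 (minus, the outermost of its 3 start sites) and BRDT at chr1:91949121-91949370 (plus).
PIWIL1: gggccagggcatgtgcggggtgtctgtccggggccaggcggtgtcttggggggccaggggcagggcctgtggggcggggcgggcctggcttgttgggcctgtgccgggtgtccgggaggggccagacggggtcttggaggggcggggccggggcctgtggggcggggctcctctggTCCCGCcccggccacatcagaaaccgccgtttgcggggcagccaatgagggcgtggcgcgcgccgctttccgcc
TDRD1: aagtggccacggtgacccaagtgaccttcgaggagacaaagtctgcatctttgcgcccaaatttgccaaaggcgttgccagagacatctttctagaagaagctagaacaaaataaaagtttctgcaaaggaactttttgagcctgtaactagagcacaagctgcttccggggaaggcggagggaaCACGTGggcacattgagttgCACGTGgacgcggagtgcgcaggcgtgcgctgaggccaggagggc
PRAME: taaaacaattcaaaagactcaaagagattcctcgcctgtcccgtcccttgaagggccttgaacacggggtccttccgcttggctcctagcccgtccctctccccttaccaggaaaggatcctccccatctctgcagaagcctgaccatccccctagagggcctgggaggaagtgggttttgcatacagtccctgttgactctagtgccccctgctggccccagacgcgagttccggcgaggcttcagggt
BRDT: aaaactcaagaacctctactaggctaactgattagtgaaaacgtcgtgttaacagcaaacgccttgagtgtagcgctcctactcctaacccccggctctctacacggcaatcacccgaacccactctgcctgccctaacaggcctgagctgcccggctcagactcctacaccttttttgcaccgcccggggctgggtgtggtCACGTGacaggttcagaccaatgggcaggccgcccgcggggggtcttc
The TDRD1 window held 2 copies of the E-box and the BRDT window 1, while those of PIWIL1 and PRAME held 0. At least 1 such E-box lay in 6.34% of the 35116 windows of this length, and 2 or more lay in 0.535%. PIWIL1 held 1 E2F-type match, which 23.5% of windows share. The PIWIL1 window was also the richest of these 4 in CpG dinucleotides, with 22, against 13 for TDRD1, 14 for BRDT and 9 for PRAME. TDRD9, at background in every line, had 35 CpG and neither motif. These matches are letters in a window, and binding was not measured here.

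The deposited values are intensities on a linear scale. Over the 12721 genes bright enough to be tested, the lowest correlation within a line was 0.993 and the highest between lines was 0.892, and 0 pairs of arrays were identical. The medians of the arrays ran from 51.9 to 126, so that a gene can be brighter in a line because most genes are. Results are therefore also given after each array was centred on the median of its tested genes, which subtracted 0.69 (SK-N-AS), 0.49 (BE(2)-C), -0.12 (NGP), -0.42 (KELLY) and -0.64 (SH-SY5Y) from log2 values. The files give no detection calls. Background was therefore taken from 506 probe sets of olfactory receptor, taste receptor and keratin-associated protein genes, whose known sites of expression lie in other tissues. A probe set was called above background in a line when its mean and all 3 of its arrays exceeded the 95th percentile of these reference probe sets there. That threshold was an intensity of 127.7 for SK-N-AS, 111.5 for BE(2)-C, 86.7 for NGP, 72.8 for KELLY and 54.4 for SH-SY5Y. By construction, the means of 26 of the 506 reference probe sets lay above it in each line. The share of all measured genes above background was not computed, so counts above background describe the listed genes alone.

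Of the 7 measured genes, 3 were above background somewhere: PRAME in all 5 lines, TDRD1 in BE(2)-C and PIWIL1 in SH-SY5Y. The same 3 genes passed the filter on dim genes (a highest line mean of at least 6.35 on the log2 scale), which they did through those lines. PIWIL2, PIWIL4, TDRD9 and BRDT were at background in all 5 lines. The MYCN-amplified lines thus had no member in common above background other than PRAME, which was also bright in both lines without the amplification.

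**Figure D1:**
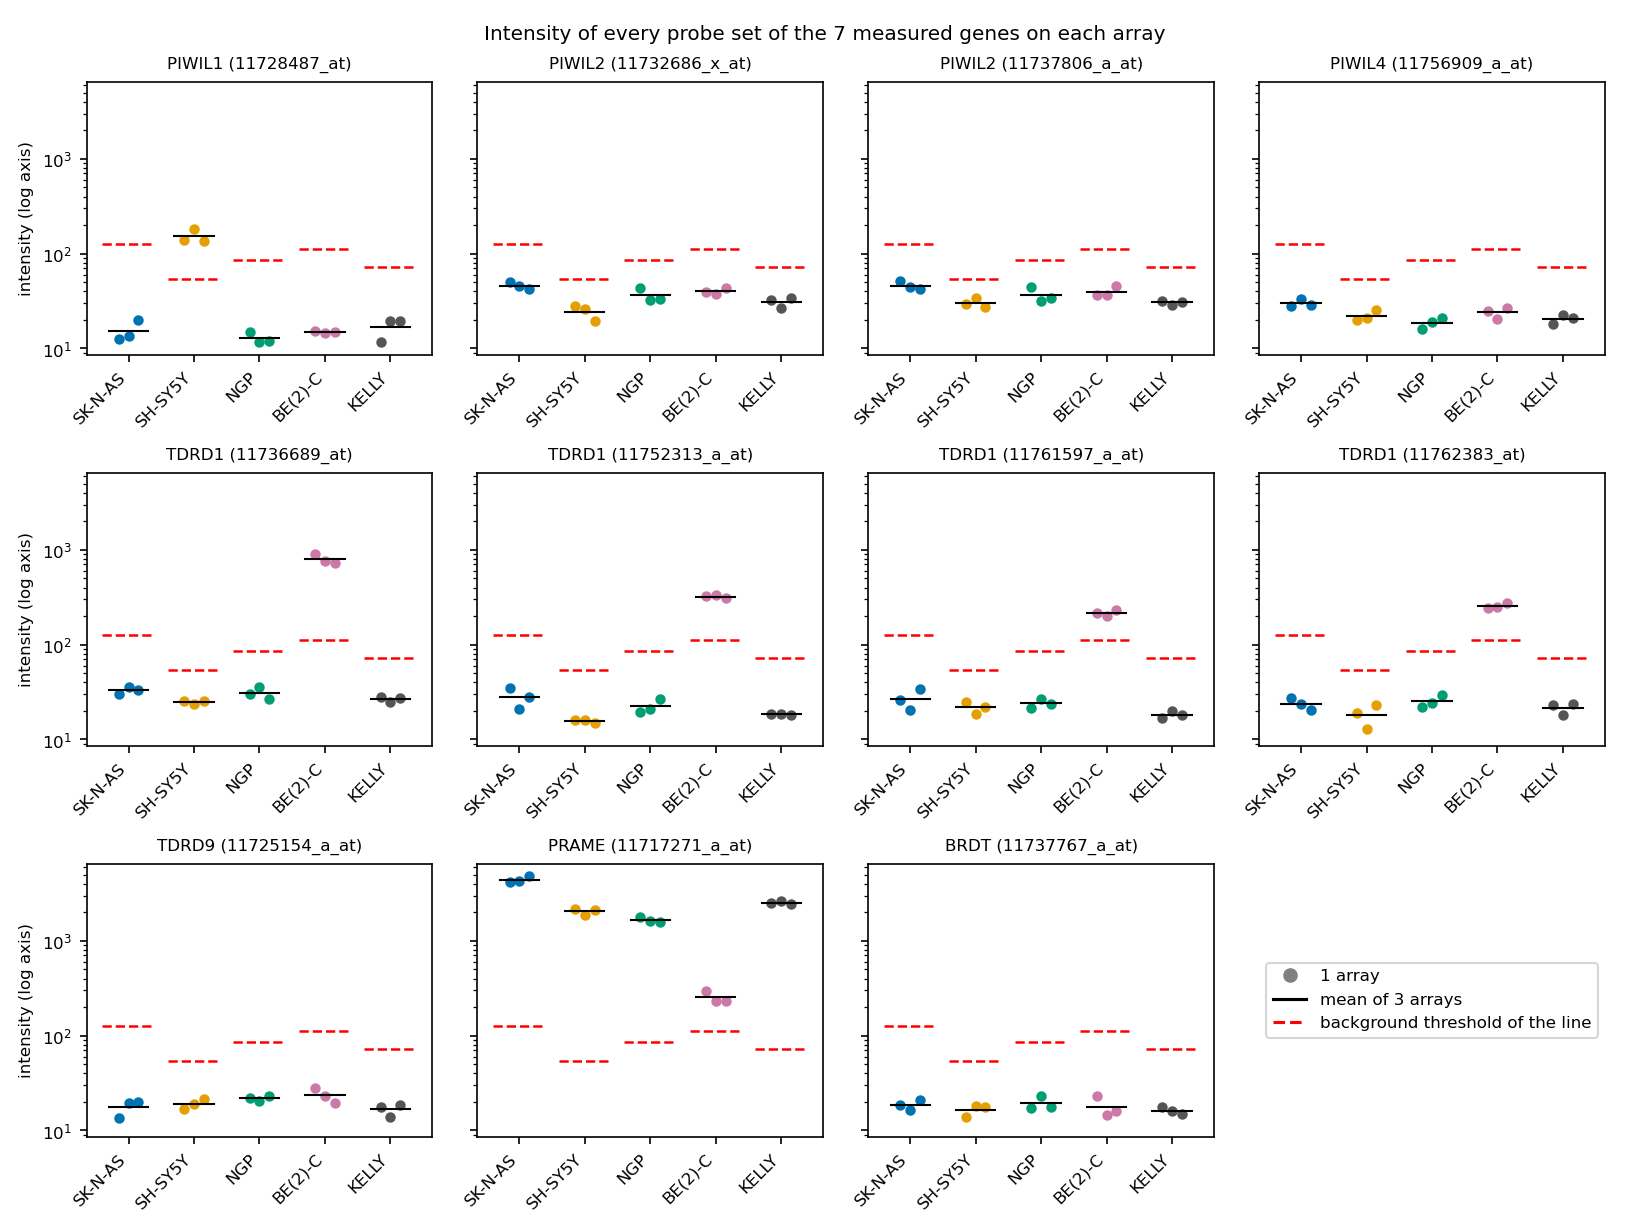
Intensity (vertical log axis) of the 11 probe sets of the 7 measured genes in each of the 5 lines, with a point per array, a black bar at the mean of 3 arrays and a dashed red bar at the background threshold of that line. PRAME lies above the red bars in all 5 lines, all 4 TDRD1 probe sets in BE(2)-C alone, PIWIL1 in SH-SY5Y alone, and the remaining probe sets below them in every line.

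PIWIL1, the human PIWI protein of later spermatogenesis and a partner of piRNAs, was bright in SH-SY5Y alone. Its intensity on the arrays of SH-SY5Y was 138.3, 182.9 and 135.8 (152.4 ± 26.5, SD, n = 3). In the other lines the means were 16.9 ± 4.52 (KELLY), 15.4 ± 4.07 (SK-N-AS), 14.9 ± 0.504 (BE(2)-C) and 12.9 ± 1.84 (NGP). The dimmest SH-SY5Y array thus lay well above the brightest array of any other line, at 20.1, and the arrays of the other 4 lines overlapped. The mean in SH-SY5Y lay above 99% of the reference probe sets of SH-SY5Y, against 2.8% to 9.1% in the others. Since PIWIL1 was not above background in those lines, a fold against them is a lower bound, taken here as the bright mean over the background threshold of the dim line. By this measure SH-SY5Y was at least 1.19-fold (SK-N-AS) to at least 2.09-fold (KELLY) higher as deposited, and at least 2.45-fold to 2.98-fold on centred arrays.

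PIWIL2 and PIWIL4, the PIWI proteins that act in earlier male germ cells, did not exceed background. The 2 PIWIL2 probe sets ranged over line means from 24.5 ± 4.31 in SH-SY5Y to 45.8 ± 3.72 in SK-N-AS and from 30.3 ± 3.32 in SH-SY5Y to 46.0 ± 4.39 in SK-N-AS. Each lay above 51.0% to 74.3% of the reference probe sets of its line, and neighbouring lines overlapped. PIWIL4 ran from 18.6 ± 2.43 (NGP) to 30.0 ± 2.63 (SK-N-AS), above 12.6% to 41.7% of the reference. SK-N-AS was the brightest line for both genes as deposited, but on centred arrays it was not, and SK-N-AS less SH-SY5Y for PIWIL2 turned from 0.59 to -0.74 on the log2 scale. Both sets of values describe probe sets at background and carry no order of the lines.

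TDRD1, a tudor protein that binds PIWI proteins in the granules of male germ cells, was bright in BE(2)-C alone, and its 4 probe sets showed this alike. The brightest probe set read 896.2, 771.0 and 726.6 on the BE(2)-C arrays (797.9 ± 88.0, SD, n = 3). Elsewhere it stood at 33.2 ± 2.66 (SK-N-AS), 31.0 ± 4.56 (NGP), 26.7 ± 1.86 (KELLY) and 24.7 ± 1.09 (SH-SY5Y). No array of another line exceeded 35.8, and the arrays of neighbouring lines among those 4 overlapped, so that NGP and KELLY, the other amplified lines, were not set apart from SK-N-AS and SH-SY5Y.

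The other 3 probe sets of TDRD1 stood in BE(2)-C at 320.7 ± 12.6, 256.6 ± 16.8 and 213.9 ± 15.6, and over all other lines between 15.7 and 28.0. All other lines were at background, so the same lower bound applies. Against the line with the highest threshold, SK-N-AS, BE(2)-C was at least 6.25-fold higher for the brightest probe set and at least 2.51, 2.01 and 1.67-fold higher for the others, which share 1 RNA and are not replicates. All 4 were above the 95th percentile of the reference in BE(2)-C, and 2 of them, the 2 brightest, were above its 99th percentile (293.1). On centred arrays the smallest bound for the brightest probe set was 5.86-fold. The E-box pair printed above is therefore present upstream of a gene that was bright in 1 of the 3 amplified lines.

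TDRD9, a helicase with a tudor domain that acts in transposon silencing, was at background. Its line means lay between 16.8 ± 2.65 in KELLY and 23.6 ± 4.39 in BE(2)-C, and neighbouring lines overlapped. The reference probe sets were brighter in most cases, with 9.1% to 25.1% of them below TDRD9.

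PRAME was above background in all 5 lines, and BE(2)-C was the dimmest. SK-N-AS arrays read 4137, 4303 and 4834 (4425 ± 364, SD, n = 3). KELLY arrays read 2494, 2601 and 2450 (2515 ± 77.9), and those of SH-SY5Y 2159, 1875 and 2113 (2049 ± 152). NGP followed with 1795, 1618 and 1579 (1664 ± 115). BE(2)-C arrays read 297.9, 233.2 and 233.8 (255.0 ± 37.2). No array of any line overlapped those of its neighbour in this order. The steps on the log2 scale were 0.81 from SK-N-AS to KELLY, 0.30 from KELLY to SH-SY5Y, 0.30 from SH-SY5Y to NGP and 2.71 from NGP to BE(2)-C.

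The mean of PRAME in SK-N-AS was 17.4-fold that in BE(2)-C. BE(2)-C still lay above 98.6% of its reference probe sets, but below their 99th percentile of 293.1 by its mean, while the other 4 lines exceeded theirs. Centring changed the order above BE(2)-C: KELLY (11.72 on the log2 scale) and SH-SY5Y (11.64) overlapped, SK-N-AS followed at 11.41, then NGP at 10.82 and BE(2)-C at 7.5. BE(2)-C was the lowest line on both scales, 2.71 below the next line as deposited and 3.32 below it on centred arrays. Within the amplified lines PRAME therefore spanned most of its range, and the amplification did not sort its levels.

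**Figure D2:**
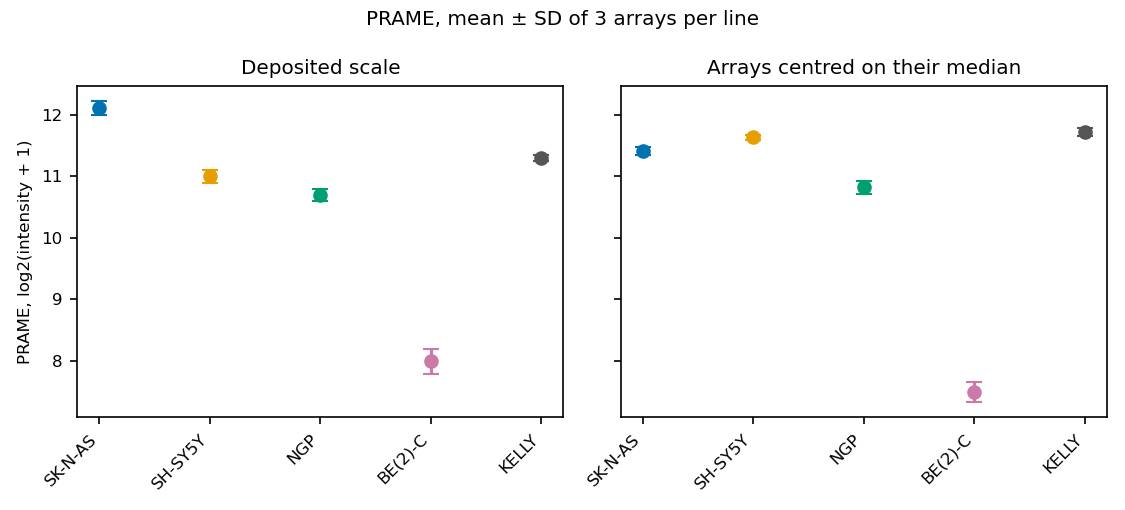
PRAME in each line as log2(intensity + 1), mean with SD of 3 arrays as the bar, on the deposited scale (left) and after centring each array (right). SK-N-AS is highest on the left and KELLY and SH-SY5Y on the right, while BE(2)-C is lowest in both panels.

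BRDT was at background in all lines, with line means between 16.2 ± 1.34 in KELLY and 19.5 ± 3.32 in NGP, above 8.3% to 15.2% of the reference. The arrays of neighbouring lines overlapped. Its somatic relatives BRD2 and BRD3 were above background throughout, BRD2 between 670 ± 62.3 in SH-SY5Y and 1976 ± 124 in BE(2)-C and BRD3 between 900.1 ± 53.9 in KELLY and 2576 ± 82.6 in BE(2)-C.

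Germ cell marker genes other than the members were mostly at background. Of 6 germ cell markers with a probe set, the RNA helicase DDX4, the translation regulator DAZL, the synaptonemal complex protein SYCP3, the piRNA factor MAEL and the pluripotency factor POU5F1 were at background in all lines. NANOS3, an RNA-binding protein of primordial germ cells, was just above background in SH-SY5Y (63.9 ± 5.06) and NGP (97.9 ± 5.79). It read 115.0 ± 8.14 in SK-N-AS, 106.9 ± 14.1 in BE(2)-C and 78.8 ± 5.96 in KELLY without being called there. These calls thus rest on the threshold of each line. The summed intensity of the 6 markers ran over arrays from 167.7 to 183.2 for SH-SY5Y, 182.6 to 207.2 for KELLY, 213.2 to 252.5 for NGP, 219.7 to 270.6 for BE(2)-C and 243.0 to 277.8 for SK-N-AS. Of 11 markers of sympathetic neuroblasts, all 11 were above background in each line but SK-N-AS, which had 5 (PHOX2A, HAND2, GATA3, ISL1 and TH). In RNA from bulk cultures, fewer expressing cells and less RNA per cell cannot be told apart.

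The rest of the piRNA pathway was above background in part. Of 31 pathway genes beside the members, 12 were above background in at least 1 line and 8 in all 5. How these counts compare with the share of all genes was not computed. SK-N-AS had all of the 12, SH-SY5Y, NGP and KELLY 10 each, and BE(2)-C 8. The 8 were TDRD3, TDRKH, SND1, AKAP1, PLD6, PRMT5, WDR77 and TDRP. SND1 is a tudor nuclease found in most cells, AKAP1 and PLD6 are proteins of the mitochondrial surface, and PRMT5 with WDR77 forms the arginine methyltransferase that marks PIWI and many other proteins. The remaining 19 were at background in all lines. Among them were PIWIL3 (line means 12.0 to 17.9), DDX4 (18.3 to 25.3), MAEL (13.5 to 26.9), TDRD5, TDRD6, TDRD12, MOV10L1, ASZ1, HENMT1 and RNF17.

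**Figure D3:**
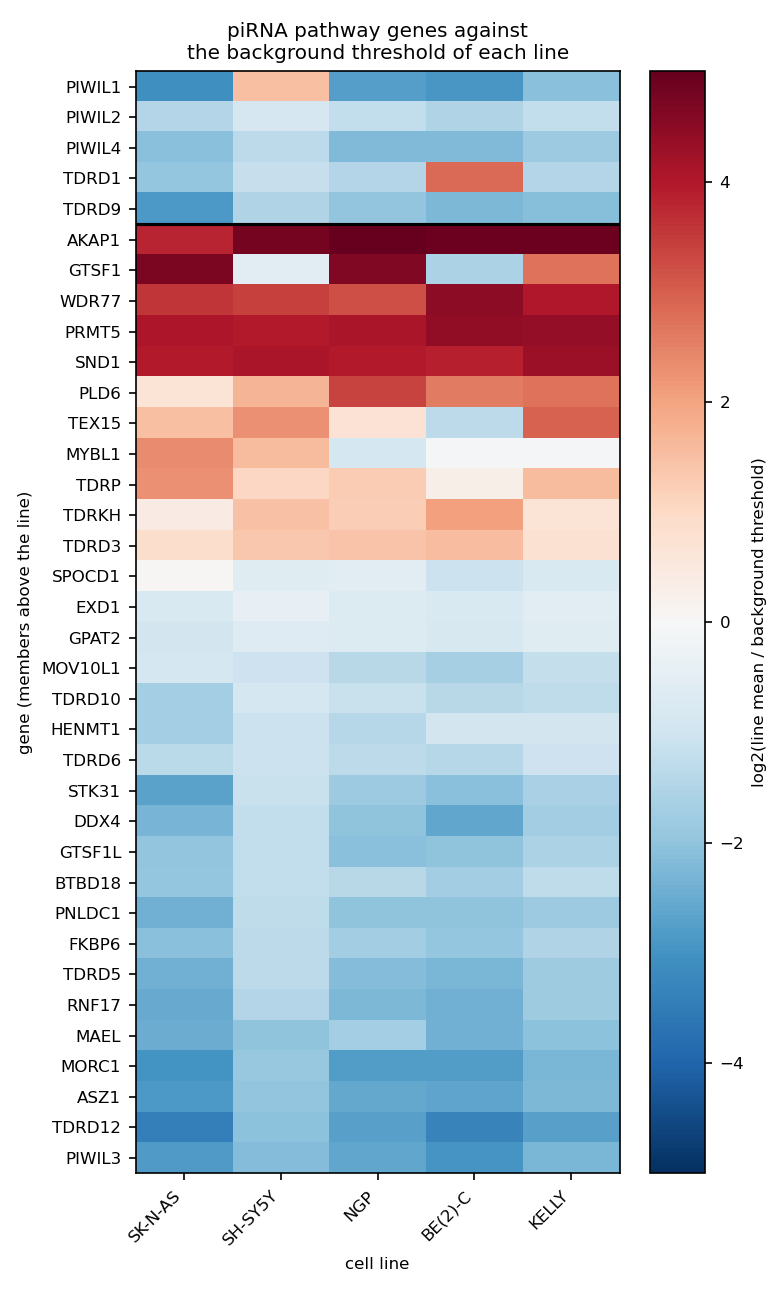
Line mean over the background threshold of that line, as a log2 ratio in colour (red above, blue below), for 5 measured PIWI and TDRD members (above the black line, brightest probe set each) and 31 other piRNA pathway genes in rows, by line in columns. PIWIL1 in SH-SY5Y and TDRD1 in BE(2)-C are the only red cells among the members, 8 other genes are red in all 5 lines, and most rows are blue throughout.

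GTSF1, a zinc finger protein that helps PIWI proteins silence transposons, differed most between lines among the 12 tested genes of this list. It read 3323 ± 196 in SK-N-AS, 2148 ± 96.2 in NGP and 482.9 ± 25.2 in KELLY, against 37.4 ± 4.13 in SH-SY5Y and 37.0 ± 6.93 in BE(2)-C (SD, n = 3). Against the mean of the other 4 lines it was higher in SK-N-AS by 4.08 (log2, SE 0.08, limma adjusted p = 8.66e-24). It was also higher for NGP, by 3.29, and lower in BE(2)-C by a difference of -4.00 (adjusted p = 7.17e-23) and in SH-SY5Y by -3.97 (adjusted p = 8.67e-23). On centred arrays NGP (3.45) stood above SK-N-AS (3.21), and both stayed called. GTSF1 was at background in SH-SY5Y and BE(2)-C, the lines where PIWIL1 and TDRD1 were bright. Where a line is at background, here and below, a log2 difference is one of measured signals and not of exact RNA amounts.

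MYBL1, the transcription factor that drives piRNA precursor genes in meiosis, was higher in SK-N-AS, at 659.2 ± 17.4 against 47.7 ± 5.07 to 162.4 ± 9.05 elsewhere (log2 difference 2.90, SE 0.07, limma adjusted p = 5.12e-22). TEX15, needed for transposon silencing in male germ cells, was lower in BE(2)-C, at 44.8 ± 2.40 against 144.4 ± 7.07 or more elsewhere (-2.69, SE 0.07, adjusted p = 2.15e-21), and higher in KELLY, at 558.6 ± 7.17 (1.82, SE 0.07, adjusted p = 6.83e-18). These calls on GTSF1, MYBL1 and TEX15 held on centred arrays too. MYBL1 was also above background in SH-SY5Y, where it was called higher on centred arrays alone (log2 difference 1.185, limma adjusted p = 2.98e-11). In BE(2)-C, where TDRD1 was bright, its relative TDRKH was higher (459.1 ± 8.71 against 116.0 ± 5.88 to 204.3 ± 23.3, limma adjusted p = 9.94e-16). On centred arrays its log2 difference was 0.93 (limma adjusted p = 5.59e-11), short of the size of 1 that a call needed.

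To set the members beside other germline genes, 5 lists (piRNA pathway, germ cell determinants, meiosis, cancer-testis antigens, spermatid and sperm) were tested without the members. A gene was called when its difference between a line and the mean of the other 4 had a limma adjusted p under 0.05 over all genes and a log2 size of at least 1. Of 197 listed genes, 186 had a probe set and 77 were bright enough to be tested. The 5 comparisons share the same arrays and are not independent of each other. Of the 77 genes, 46 (59.7%) were called in at least 1 of the 5 comparisons, against 66.5% of all 12721.

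In SK-N-AS 31 of the 77 (40.3%) were higher and 3 (3.9%) lower, against 36.6% and 5.28% of all tested genes. On centred arrays 19 were higher and 11 lower, against 11.6% and 13.5% of all genes. All 19 were also called as deposited. In BE(2)-C 10 (13.0%) were higher and 11 (14.3%) lower, against 22.8% and 3.64% of all genes. Centred, 4 were higher and 19 lower, against 6.23% and 8.36%. These lists thus stood in SK-N-AS near the share of all genes on the deposited scale and above it in the higher direction on centred arrays, and in BE(2)-C above it in the lower direction on both scales.

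In NGP the lists stood above the share of all genes in the lower direction on both scales, and in KELLY and SH-SY5Y the counts changed with the scale. In NGP 4 (5.19%) were higher and 14 (18.2%) lower, against 6.05% and 9.23% of all genes, and 6 and 13 on centred arrays, against 7.45% and 6.81%. In KELLY 6 (7.79%) were higher and 16 (20.8%) lower, against 2.97% and 17.2%, and 7 and 6 on centred arrays, against 6.41% and 5.65%. In SH-SY5Y 1 (1.3%, SPA17) was higher and 21 (27.3%) lower, against 1.89% and 29.4%, and 7 and 6 on centred arrays, against 6.71% and 4.83%. The split of higher against lower calls in SK-N-AS, SH-SY5Y, BE(2)-C and KELLY thus depended on the scale. Lower calls in lines other than SK-N-AS include genes bright in SK-N-AS alone and at background elsewhere, such as CTAG2 and MAGEA11. For these, the brightness of SK-N-AS raised the mean compared with, so the lower counts do not show a loss in the line named.

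**Figure D4:**
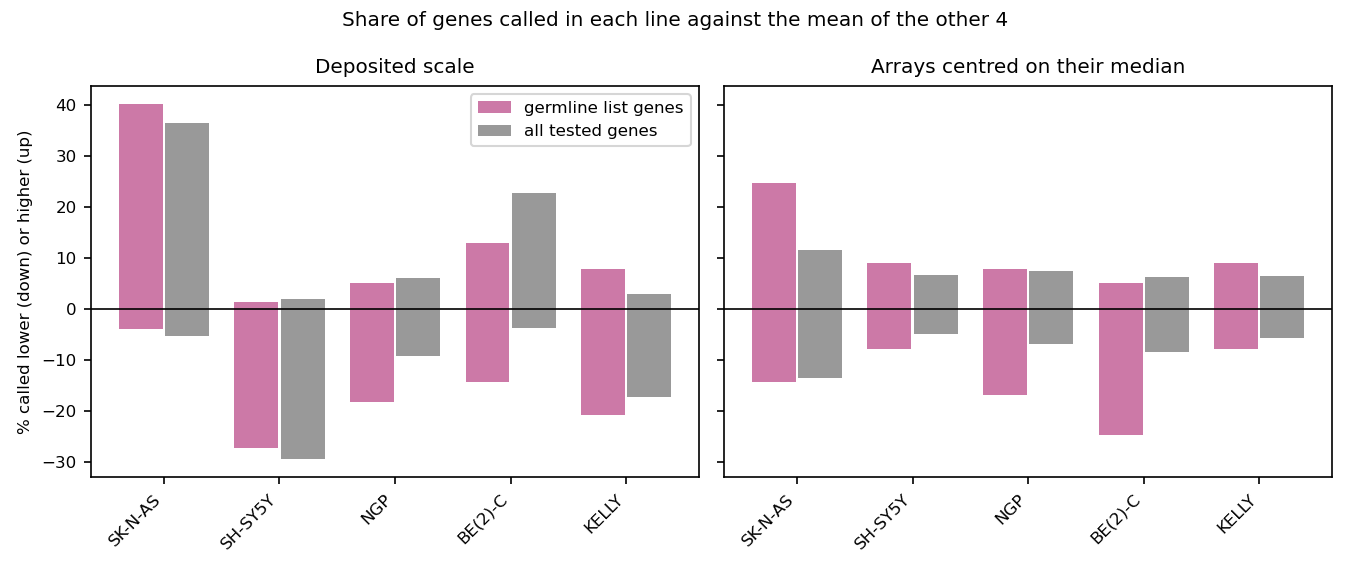
Percent of the 77 tested germline list genes (pink, members left out) and of all 12721 tested genes (grey) that were called higher (upward bars) or lower (downward bars) in a line relative to the other 4, on the deposited scale (left) and on centred arrays (right). In SK-N-AS the pink and grey upward bars are alike on the left (40.3% and 36.6%), and in BE(2)-C the pink downward bar is longer than the grey one in both panels.

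Cancer-testis antigens, the class PRAME belongs to, were 33 of the 77 genes tested and 23 of the 46 called in any comparison. Of all tested genes 66.5% were so called. In SK-N-AS 20 of the 33 (60.6%) were higher and 1 (3.03%) lower, against 36.6% and 5.28% of all tested genes, with a median log2 difference of 1.72 against 0.77 over all tested genes. Of the 20, 19 were above background there and 14 were also called on centred arrays, where 11.6% of all genes were called higher. CTAG2, a relative of NY-ESO-1, read 7287 ± 485 in SK-N-AS, while no other line exceeded 76.5 ± 2.23 (at least 65.4-fold over the highest threshold among them, limma adjusted p = 1.56e-28). MAGEB2, a MAGE gene of the X chromosome, read 2922 ± 163 in SK-N-AS, while no other line exceeded 39.5 ± 2.01 (at least 26.2-fold, adjusted p = 1.34e-26). Both were above background in SK-N-AS alone, while PRAME was above it in all 5 lines. They also passed the filter on dim genes through SK-N-AS alone, so their p-values are no support apart from that selection. The count of 20 includes such genes.

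IL13RA2, a decoy receptor for interleukin 13, was bright in both SK-N-AS (8798 ± 717) and BE(2)-C (8807 ± 383), against 49.4 ± 4.44 or less in the other lines, with log2 differences of 6.40 in each (adjusted p = 1.17e-25 and 1.02e-24). BE(2)-C had 3 of the 33 cancer-testis antigens higher and 9 (27.3%) lower, against 22.8% and 3.64% of all genes, and 3 and 14 on centred arrays. NGP had 1 higher and 11 (33.3%) lower, against 6.05% and 9.23%, and 1 and 10 on centred arrays. KELLY had 5 (15.2%) higher and 10 (30.3%) lower, against 2.97% and 17.2%, and 5 and 5 on centred arrays. SH-SY5Y had 1 higher and 13 (39.4%) lower, against 1.89% and 29.4%, and 4 and 5 on centred arrays. Centred shares of all genes, higher and lower, were 6.23% and 8.36% in BE(2)-C and 7.45% and 6.81% in NGP. They were 6.41% and 5.65% in KELLY and 6.71% and 4.83% in SH-SY5Y. Of the lower calls, centring kept 10 of 11 in NGP and all 9 in BE(2)-C, but 5 of 10 in KELLY and 5 of 13 in SH-SY5Y.

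Markers of other cell types also differed between the lines. The leukocyte gene PTPRC was above background in SK-N-AS (320.0 ± 24.6, 14.7 ± 2.17 or less elsewhere) while CD3E, CD14, LYZ and ITGAM were not. Of 5 epithelial markers KRT8 and KRT18 were above background in SK-N-AS, and 5 of 6 fibroblast markers were, whose summed intensity ran there from 23190 to 24570 over arrays. In BE(2)-C, the line where TDRD1 was bright and PRAME dimmest, 4 of the 6 fibroblast markers were above background, with a sum of 2095 to 2252 over arrays, against 610.2 or less in NGP, KELLY and SH-SY5Y. Among them LUM read 1055 and COL3A1 164.0 in BE(2)-C. NGP had 3 of the 6 above background, and KELLY and SH-SY5Y 1 each. COL1A1 was above background in NGP (139.1) but not in BE(2)-C (85.7). The endothelial gene CDH5 (230.7, 42.5 or less elsewhere) and the Schwann cell gene S100B (269.5, 49.5 or less elsewhere) were above background in BE(2)-C alone, while PECAM1, VWF, KDR and ERBB3 were not above background in any line. SOX10, also a Schwann cell gene, was above background in SK-N-AS (137.8) and NGP (92.1) but not in BE(2)-C (106.0). KRT19, an epithelial keratin, read 358.2 in BE(2)-C and was also above background in SH-SY5Y (69.4). The part of these differences in the results on TDRD1, PRAME and the germline lists was not tested.

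Over all 12721 tested genes, 66.5% were called in at least 1 comparison. Of the smaller lists, 1 of 10 tested germ cell determinants, 7 of 13 meiosis genes and 6 of 9 spermatid and sperm genes were. The determinant was TFAP2C, a factor of primordial germ cells, higher in SK-N-AS at 365.8 ± 73.2 against 22.2 ± 3.34 or less elsewhere (at least 3.28-fold, limma adjusted p = 9.74e-20), on both scales. It was also called lower in SH-SY5Y and KELLY as deposited, though at background in every line but SK-N-AS. TFAP2C passed the filter on dim genes through SK-N-AS alone, so its p-value is no support apart from that selection. Of the 13 meiosis genes, 3 (23.1%) were higher in BE(2)-C, 2 (15.4%) in SK-N-AS and 1 (7.69%) in NGP, against 22.8%, 36.6% and 6.05% of all genes. In the lower direction 2 (15.4%) were called in KELLY and 1 (7.69%) each in SH-SY5Y and NGP, against 17.2%, 29.4% and 9.23%. These shares were near or below those of all genes. On centred arrays 1 was higher and 1 lower in BE(2)-C, while SK-N-AS had 0 higher and 3 lower, NGP 1 and 1, and KELLY with SH-SY5Y 0 in either direction. Centred shares of all genes were 6.23% and 8.36% in BE(2)-C, 11.6% and 13.5% in SK-N-AS and 7.45% and 6.81% in NGP. The mismatch repair gene MLH3 was higher in BE(2)-C (334.1 ± 14, 1.83, adjusted p = 5.89e-17), on both scales. The calls on MEIOB, a single-strand DNA binding protein of meiosis (SK-N-AS, 88.2 ± 7.34), and on the helicase HFM1 (NGP, 94.4 ± 13.4) concern probe sets that were not above background in any of the 5 lines and passed the filter on dim genes through the line named, so no difference is given for them. The MEIOB call was lost on centred arrays, while the HFM1 call held. The NGP mean of HFM1 exceeded the threshold there (86.7), but not all 3 of its arrays did. Of the 9 spermatid and sperm genes, 3 (33.3%) were higher and 1 (11.1%) lower in SK-N-AS, against 36.6% and 5.28% of all genes. On centred arrays 1 was higher and 1 lower there, against 11.6% and 13.5%. The chaperone HSPA2 was higher, at 1069 ± 41.4 (2.91, limma adjusted p = 3.48e-21), and the chaperone CLGN lower (-1.51, adjusted p = 4.51e-15), both on both scales. The calcium channel subunit CATSPER1, called higher as deposited and not on centred arrays, was not above background in any line.

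Comparison by MYCN status asked which genes were called in the same direction in all 6 pairs of an amplified with another line. Of the 77 germline list genes 1 was higher and 2 were lower, against 0.684% and 0.346% of all tested genes. PLD6, an endonuclease of the mitochondrial surface in piRNA production, was higher, at 479.7 ± 30.9 (KELLY), 673.3 ± 29.8 (BE(2)-C) and 892.6 ± 79.9 (NGP), with 178.4 ± 26.5 (SH-SY5Y) and 207.2 ± 5.79 (SK-N-AS) in the others. It did not pass all 6 pairs on centred arrays. MAGEA12 and CSAG1, both cancer-testis antigens, were lower on both scales, but 0 of these 2 calls remained without _s_at and _x_at probe sets, which are those of both genes, 0 with a pseudocount of 16 and 1 without KELLY replicate 1. CSAG1 read 117.6 ± 10.9 in KELLY, 96.4 ± 0.515 in NGP and 56.0 ± 5.36 in BE(2)-C, and 247.2 ± 17.7 (SH-SY5Y) and 1362 ± 82.7 (SK-N-AS) in the others. On centred arrays alone, MYBL1 and MAGEC2 were also lower in all 6 pairs. Both were at background in the amplified lines, and MAGEC2 in SH-SY5Y as well. MYCN itself read 9363 in KELLY, 9925 in NGP and 13690 in BE(2)-C, while TDRD1 was bright in BE(2)-C alone among these.

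Partners of PRAME and most genes of germline gene silencing were above background in every line. For these lists too, the share of all genes above background was not computed. Of 14 relatives and partners of PRAME and BRDT with a probe set, 9 were above background in all 5 lines. The PRAME relatives PRAMEF1, PRAMEF2, PRAMEF10, PRAMEF12 and LRRC14B were at background in every line. The elongin and cullin subunits that PRAME is known to join were bright, with ELOC highest in SK-N-AS (11880 ± 704, 1.71, limma adjusted p = 1.63e-19), CUL2 likewise (2522 ± 127, 1.40, adjusted p = 2.28e-17) and RBX1 in BE(2)-C (4088 ± 61.3, 1.57, adjusted p = 4.56e-17). On centred arrays none of these 3 calls held. Of 9 relatives and partners tested, 3 were higher in SK-N-AS, 3 higher in BE(2)-C and 3 lower in SH-SY5Y, against 36.6%, 22.8% and 29.4% of all genes.

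Of 30 genes with a probe set on a list of germline gene silencing, which also holds TET1, TET2 and TET3, enzymes that act in removing DNA methylation, 29 were above background in all 5 lines, including the DNA methyltransferase DNMT1 (2614 ± 175 in SH-SY5Y to 6422 ± 148 in BE(2)-C), E2F6 (284.6 ± 24.5 in SH-SY5Y to 671.8 ± 21.3 in BE(2)-C) and MGA (345.6 ± 43.2 in SH-SY5Y to 697.2 ± 142 in NGP), which belong to the complex known to silence germline promoters. Of 29 tested, 7 (24.1%) were higher and 1 lower in SK-N-AS, 6 (20.7%) higher and 0 lower in BE(2)-C, 0 and 8 (27.6%) in SH-SY5Y, 0 and 2 (6.9%) in NGP and 0 and 4 (13.8%) in KELLY. All tested genes gave 36.6% higher in SK-N-AS, 22.8% higher in BE(2)-C and 29.4%, 9.23% and 17.2% lower in SH-SY5Y, NGP and KELLY. On the deposited scale no share of the list thus exceeded that of all genes. TET2 was among the 7 and the 8. On centred arrays SK-N-AS had 1 higher and 3 lower, NGP 2 and 2, and the remaining lines 0 in either direction. Centred shares of all genes were 11.6% and 13.5% in SK-N-AS and 7.45% and 6.81% in NGP. The named ones were the histone methyltransferase SUV39H1, higher in SK-N-AS (1044 ± 70.9, 1.93, limma adjusted p = 3.40e-17), the methyltransferase DNMT3A, lower there (266.2 ± 9.78 against 615.4 ± 179 or more, -1.73, adjusted p = 2.94e-12), and ATF7IP, a cofactor of histone methylation, lower in NGP (122.7 ± 9.61, -1.67, adjusted p = 6.16e-16). These 3 calls held on both scales.

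The genes whose pattern over the 15 centred arrays lay nearest to each bright member were found by the root mean square difference of log2 deviations. For PRAME, whose own deviations had a spread of 1.59, these were RNF182 (0.38), LDHA (0.38) and SLC2A13 (0.48). LDHA, the lactate dehydrogenase subunit, read 933.2 in BE(2)-C, 5589 in SH-SY5Y, 6502 in KELLY, 8173 in NGP and 19530 in SK-N-AS, with BE(2)-C lowest as for PRAME. For TDRD1 (spread 1.69) they were APLNR (0.23), PDIA2 (0.31) and SLC32A1 (0.49). APLNR, the apelin receptor, stood at 1378 in BE(2)-C and at 58.7 or less elsewhere. For PIWIL1 (spread 1.70) they were ZNF415 (0.31), NNAT (0.37) and NUDT10 (0.42). NNAT, the imprinted gene neuronatin, stood at 1117 in SH-SY5Y and at 94.5 or less elsewhere. With 5 lines, such likeness describes which lines are bright or dim and rests on lines, not on 15 independent samples.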

How the data were processed

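Expression was measured in 15 samples of 5 lines. The values are intensity, as the authors deposited it in 1 table. Per the submitters' processing notes MAS5 was used, with version, scale and normalization not given in the sources used here. Per the labels' protocols, ERCC transcripts were added at lysis. The median of 100 ERCC probe sets was 4.69 to 4.92 on the log2 scale. That is near the median intensities of the background reference (24.25 in SH-SY5Y to 32.24 in SK-N-AS), so it does not show whether the arrays share a scale. Of 49494 probe sets, 45277 named 1 gene and 1333 several, which named none here. The brightest probe set by mean stood for a gene. Tests used log2(intensity + 1), where folds of dim genes are understated, in limma 3.58.1 (R 4.3.3) with 1 mean per line, an intensity trend and Benjamini-Hochberg adjustment over 12721 genes. Genes were tested where the highest line mean reached the table's median (an intensity of 80.6). The number of arrays limits the precision. On simulated data, 200 genes changed by 1.5 in BE(2)-C were recovered to 100%, with 0 unchanged genes called. The simulated lines did not differ in brightness as a whole, so this check does not bear on the dependence on scale. The members and lists were chosen with earlier results of these data known. Genes named were all members, up to 3 called genes per list with the largest difference between a line and the other 4, the genes DDX4, DAZL, MAEL, PIWIL3, BRD2, BRD3, MYCN, E2F6, MGA and DNMT1, and the 3 most alike per bright member. A further gene of this rule is not reported here. Others are named where a count or set needs them and were chosen after their values were seen. Same-numbered arrays of different lines did not deviate together. Alternatives were array centring, quantile normalization, no filter, other probe set choices, a pseudocount of 16, other background references, a replicate block and leaving out each array.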

Additional observations from a re-analysis of the deposited data

How the results depend on the processing

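Of 361 alternative values, 322 kept their direction and size, 34 moved and 5 reversed. The number of members above background was 3 under every alternative run, including the 99th percentile of the reference.

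Centred arrays gave, for the germline lists, 19 genes higher and 11 lower in SK-N-AS (31 and 3 as reported), 7 and 6 in SH-SY5Y (1 and 21), 4 and 19 in BE(2)-C (10 and 11), 6 lower in KELLY (16), and 0 and 4 in the amplified class (1 higher and 2 lower). Quantile normalization gave 10 lower in SK-N-AS, 6 higher and 10 lower in SH-SY5Y, 3 higher in BE(2)-C, 10 lower in KELLY, and 0 and 4 in the amplified lines. With no filter on low values 2 were higher in SH-SY5Y. Without _s_at and _x_at probe sets 7 were lower in BE(2)-C and 0 in the amplified lines, and a pseudocount of 16 also left 0 lower there. Leaving out 1 array gave 1 to 2 lower in the amplified lines, with 1 without KELLY replicate 1. The other 236 of 237 values without 1 array stayed the same by the same measure.

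The log2 difference between the brightest and the dimmest deposited line of PIWIL1 (3.46) was 3.98 centred, 4.14 with quantile normalization and 2.53 with a pseudocount of 16. For TDRD1 (4.95) it was 3.82, 4.14 and 4.32, and 4.06 with the mean of its probe sets. For PRAME (4.12) it was 3.92 centred and 3.83 with quantile normalization. The dim lines of PIWIL1 and TDRD1 were at background, so these are differences of measured signals. For genes at background it turned on centred arrays: PIWIL2 -0.74 (0.59 as reported), PIWIL4 -0.15 (0.67), TDRD9 -0.45 (0.46) and BRDT -0.053 (0.25). PIWIL2 was -0.072 with quantile normalization, 0.74 with the mean of its probe sets and 0.42 with a pseudocount of 16, and PIWIL4 was 0.48 with quantile normalization and 0.41 with that pseudocount. The cause was not tested.

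Of 30 same-numbered pairs of arrays from different lines, 5 correlated above 0.1 (-0.23 to 0.23), and 6 of 15 arrays correlated best with their own number. With the replicate number as a block the germline lists gave 31 higher and 3 lower in SK-N-AS and the same counts as without it in the other comparisons. Signal over background limits what can be said of PIWIL2, PIWIL4, TDRD9 and BRDT.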
